A study of Mus musculus with 8 samples.

Results

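Lipid droplet and lipolysis genes are described here as 10 genes, Cidec, Cidea, Plin1, Lipe, Pnpla2, Dgat2, Adrb3, Fabp4, Lpl and Cd36, of 24171 named genes on the arrays. They were found by the gene name that the array design gives each feature. All 10 were measured, by 22 of 44170 features, and each gene is given by its brightest feature, the one that was brightest on average over the 8 arrays on the log2 scale. The list was chosen by readings of these same arrays, among them the knockout minus wild type differences of Plin1 and Cidec. The differences and counts below therefore describe these arrays and are no independent evidence of a direction.

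Total RNA of 4 spleens from miR-155 knockout mice and 4 spleens from wild-type mice was hybridised with Cy3 label to 1-colour NimbleGen arrays. The knockout animals are Mim2-2 and Mim2-3, labelled male, and Mim1-5 and Mim1-6, labelled female. The wild-type animals are WT-2 and WT-4, labelled male, and WT-1 and WT-3, labelled female. Strain, age and any treatment are not given in the sources used here. Among the knockout animals the name prefix coincides with the labelled sex, so a difference between Mim2 and Mim1 and a difference between labelled sexes cannot be told apart. The series calls the spleens separate, so 1 array stands for 1 animal, and p-values measure only the spread between these arrays.

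Fat is stored in lipid droplets, organelles of neutral lipid coated by proteins that hold lipases off or let them in. When an adipocyte is stimulated through its beta-adrenergic receptors, protein kinase A phosphorylates the droplet coat and hormone-sensitive lipase, and fatty acids leave the cell. Spleen holds few adipocytes, but its macrophages and capillary endothelium carry some of the same genes, above all those for fatty acid uptake.

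The microRNA that the knockout lacks is given as sequence because it defines the genotype. The promoter windows given belong to coat genes whose brightest feature read higher on both Mim2 arrays than on the other 6. The margin was wide for Cidec and much smaller for Plin1. All are RefSeq sequences of assembly GRCm38.p6. The mature miR-155 lies on chr16:84714143-84714165 on the plus strand, and capitals mark its seed, bases 2 to 8. The promoter windows run from 250 bases before to 50 bases after a transcript start and lie on the minus strand, at chr6:113435711-113436010 and chr6:113434715-113435014 for 2 starts of Cidec and at chr7:79732727-79733026 for Plin1. Capitals there mark TTGCNNAA, a core of sites bound by C/EBP factors of adipocyte differentiation.
mmu-miR-155-5p: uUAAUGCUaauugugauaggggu
Cidec window 1: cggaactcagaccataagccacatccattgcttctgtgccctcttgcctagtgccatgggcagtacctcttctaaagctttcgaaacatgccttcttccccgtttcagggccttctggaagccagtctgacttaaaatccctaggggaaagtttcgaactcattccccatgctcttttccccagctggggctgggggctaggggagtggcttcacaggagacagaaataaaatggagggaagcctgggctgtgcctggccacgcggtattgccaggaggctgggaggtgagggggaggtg
Cidec window 2: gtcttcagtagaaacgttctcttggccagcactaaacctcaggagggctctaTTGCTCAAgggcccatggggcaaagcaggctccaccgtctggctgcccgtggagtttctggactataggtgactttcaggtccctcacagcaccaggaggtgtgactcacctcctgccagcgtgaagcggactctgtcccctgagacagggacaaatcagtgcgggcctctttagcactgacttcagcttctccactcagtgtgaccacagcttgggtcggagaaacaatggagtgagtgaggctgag
Plin1 window: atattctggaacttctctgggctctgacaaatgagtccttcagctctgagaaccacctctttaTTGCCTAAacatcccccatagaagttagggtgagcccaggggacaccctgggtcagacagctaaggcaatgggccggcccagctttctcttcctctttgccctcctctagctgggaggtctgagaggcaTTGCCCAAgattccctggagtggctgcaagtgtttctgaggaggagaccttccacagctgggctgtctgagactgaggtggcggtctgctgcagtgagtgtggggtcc
Of the 10 genes, 5 had such windows, 7 in all. TTGCNNAA, searched on both strands, stood at base 53 of the second Cidec window and at bases 64 and 193 of the Plin1 window, counted from the window start. It occurred in 10.8% of 32851 RefSeq windows of this length. AGGTCA occurred in 16.3%, TATAAA in 13.6% and CCAAT in 37.4% of all windows, and none of these lay in the printed windows. A match in these letters is a description of the sequence and not a binding site.

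Median intensities were 112.1 to 119.1 over the arrays. An entry summarising 5000 random probes stood at log2 4.94 to 5.24 and serves as the background level, with 81.1% to 85.1% of features above it. The Mim2 arrays stood apart from the rest. They correlated with the other 6 at r = 0.811 to 0.877 over all features and with each other at 0.874, against 0.911 to 0.943 among the other 6. BIC, the host transcript of miR-155, read 5.28, 5.46, 7.51 and 5.37 in Mim2-2, Mim2-3, Mim1-5 and Mim1-6, against 5.27, 4.84, 4.85 and 5.63 in WT-1 to WT-4 (limma adjusted p = 0.521). Whether its probes lie in the deleted part is not known, so it checks nothing about the genotype. Xist read 8.35 to 11.1 in arrays labelled male and 9.52 to 10.9 in arrays labelled female, and the Y-linked Ddx3y read 6.26 to 8.78 and 6.82 to 8.83, so neither separates the labelled sexes.

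The spleen label was set against markers of the cells a spleen or its surroundings could hold. Cd79a of B cells averaged 7.99 in the knockout, against 7.13 in the wild type. The red pulp macrophage factor Spic read 8.34 to 9.70 in the knockout, against 8.37, 8.40, 5.15 and 8.79 in WT-1 to WT-4. The macrophage receptor Adgre1 read 7.92 to 8.78 in the knockout, against 8.38, 7.23, 7.88 and 6.14 in WT-1 to WT-4. Both overlapped between the genotypes, with WT-3 low for Spic and WT-4 low for Adgre1. Several markers of lactating mammary epithelium were bright as well, which goes against the label, while Wap and Krt19 of the same list were dim in the wild type, at 5.69 to 7.93 and 4.76 to 5.71. The milk protein gene Csn2 read 8.22, 13.90, 13.67 and 12.16 in Mim2-2, Mim2-3, Mim1-5 and Mim1-6, against 14.90 to 15.41 in the wild type. Whether other tissue, mixed-up samples or something else lies behind these readings was not tested, and no value below can be assigned to a cell type. In such bulk RNA, fewer cells of a type and less RNA per cell cannot be told apart.

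The coat gene Cidec had the widest range over the arrays among the 10. Its protein joins droplets at their contact sites and moves lipid into the larger one. Its log2 intensity, on chromosome 6 from 113374629 to 113385754 in build MM9, was 11.88 in Mim2-2, 11.38 in Mim2-3, 5.05 in Mim1-5 and 5.31 in Mim1-6, against 6.38, 5.22, 5.64 and 5.92 in WT-1 to WT-4. Both Mim2 arrays lay far above the other 6, which lay near the random probes, and the Mim1 arrays overlapped the wild type. Knockout and wild type averaged 8.41 ± 3.73 and 5.79 ± 0.49 (SD, n = 4 each), a difference of 2.62 (SE 1.18, limma adjusted p = 0.367). Mim2 stood above Mim1 by 6.45 (SE 0.44, limma adjusted p = 0.0221), an 87.4-fold ratio of intensities and the highest difference of the 24171 genes by their brightest features. The Mim1 readings lie so close to the random probes that the ratio depends on their level. The second Cidec feature read 11.56, 11.01, 6.58 and 4.73 in the same order of knockout arrays, and 5.01 to 5.76 in the wild type.

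Cidea, a relative of Cidec that is abundant in brown fat and in lactating mammary gland, varied in another order. It lies on chromosome 18 from 67503390 to 67527426. It read 9.22 in Mim2-2, 6.31 in Mim2-3, 6.10 in Mim1-5 and 8.55 in Mim1-6, against 6.99, 5.61, 6.64 and 5.77 in WT-1 to WT-4. Mim2-2 and Mim1-6, 1 of each prefix, lay above every wild-type array and the other knockout arrays lay among them. The knockout minus wild type difference was 1.29 (SE 0.73, limma adjusted p = 0.453) and 0.56 without Mim2-2, and the Mim2 minus Mim1 difference was 0.44 (SE 1.03, limma adjusted p = 0.852) and turned to -0.78 without Mim1-5 and -1.01 without Mim2-2.

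Plin1, which encodes the perilipin that guards the adipocyte droplet and releases it to lipases when phosphorylated, was the member with every knockout array above every wild-type array. On chromosome 7 from 86873868 to 86877778, it read 8.74, 8.98, 8.15 and 8.05 in Mim2-2, Mim2-3, Mim1-5 and Mim1-6, against 7.28, 7.68, 7.98 and 7.58 in WT-1 to WT-4. The groups did not overlap, and the gap between the lowest knockout and the highest wild-type array was small. Such a separation held for 1 of 10 members and for 5.27% of all genes. The difference was 0.85 (SE 0.31, limma adjusted p = 0.307), with means of 8.48 ± 0.45 in knockout and 7.63 ± 0.29 in wild-type arrays (SD, n = 4 each). A second, dimmer Plin1 feature read 8.90, 7.90, 6.55 and 7.73 in the knockout arrays in that order, against 4.74, 5.36, 5.54 and 5.70 in the wild type, a difference of 2.44 (limma adjusted p = 0.262). The last lay at the level of the random probes on all arrays.

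**Figure D1:**
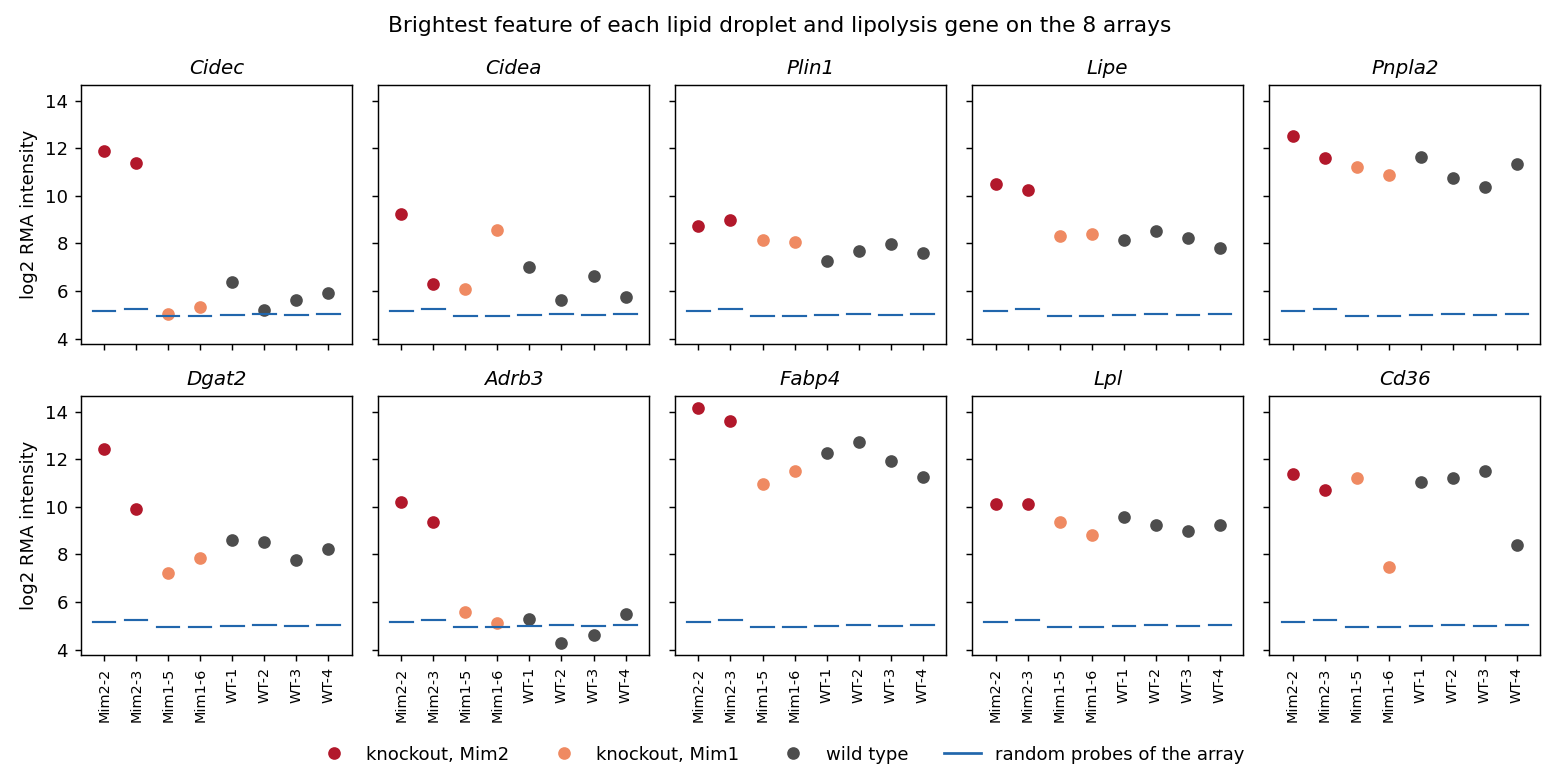
Log2 intensity (vertical axis) of the brightest feature of each gene on each of the 8 arrays (horizontal axis), with knockout Mim2 arrays in red, knockout Mim1 arrays in orange, wild type in grey and the random probes of each array as blue lines. Cidec and Adrb3 stand high on both Mim2 arrays and near the blue lines elsewhere, and Cd36 is low on Mim1-6 and WT-4.

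Of the lipases, Lipe was called between Mim2 and Mim1 and Pnpla2 was not. Lipe encodes hormone-sensitive lipase, which cleaves diglyceride, and lies on chromosome 7 from 26167954 to 26181006. It read 10.50, 10.24, 8.31 and 8.39 in Mim2-2, Mim2-3, Mim1-5 and Mim1-6, against 8.13, 8.51, 8.25 and 7.79 in WT-1 to WT-4. The Mim2 arrays lay above all others, and the Mim1 arrays lay within the wild-type range. Knockout minus wild type was 1.19 (SE 0.44, limma adjusted p = 0.314), and Mim2 minus Mim1 was 2.02 (SE 0.38, limma adjusted p = 0.0481), a 4.07-fold ratio. The second Lipe feature also had both Mim2 arrays above the other 6. By limma, however, that feature was not called, with Mim2 above Mim1 by 2.65 (SE 0.60, adjusted p = 0.0731).

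Pnpla2 encodes adipose triglyceride lipase, which takes the first fatty acid off a triglyceride, and lies on chromosome 7 from 148641105 to 148645993. It read 12.50, 11.61, 11.22 and 10.86 in Mim2-2, Mim2-3, Mim1-5 and Mim1-6, against 11.64, 10.77, 10.38 and 11.35 in WT-1 to WT-4. Only Mim2-2 lay outside the wild-type range. The knockout minus wild type difference was 0.51 (SE 0.41, limma adjusted p = 0.593) and its 95% interval ran from -0.40 to 1.43. It was 0.24 without Mim2-2, 0.30 without WT-2 and 0.86 without WT-1. A dim second feature at the same position ran the other way, with means of 5.56 in knockout and 6.29 in wild-type arrays, so the direction for Pnpla2 depends on the feature.

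Dgat2 encodes the enzyme that makes triglyceride in the last step of its synthesis, on chromosome 7 from 106302172 to 106331223. It read 12.44 in Mim2-2, 9.91 in Mim2-3, 7.22 in Mim1-5 and 7.83 in Mim1-6, against 8.59, 8.51, 7.77 and 8.24 in WT-1 to WT-4. The Mim2 arrays lay above the other 6 but differed from each other, and Mim1-5 was the lowest of all. Mim2 minus Mim1 was 3.65 (SE 0.77, limma adjusted p = 0.0635), and knockout minus wild type was 1.08 (SE 0.77, limma adjusted p = 0.554). Without Mim2-2 these differences were 2.38 and 0.22, and without WT-4 knockout minus wild type was 0.68.

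Adrb3, the beta-3 adrenergic receptor through which noradrenaline starts lipolysis in mouse adipocytes, was, like Cidec, high on the Mim2 arrays. On chromosome 8 from 28337270 to 28339222, it read 10.21, 9.34, 5.58 and 5.13 in Mim2-2, Mim2-3, Mim1-5 and Mim1-6, against 5.29, 4.28, 4.63 and 5.51 in WT-1 to WT-4. Both Mim2 arrays were high and all others lay at or near the random probes. Mim2 minus Mim1 was 4.42 (SE 0.54, limma adjusted p = 0.0357), a 21.5-fold ratio that again depends on the background level. Knockout minus wild type was 2.64 (SE 0.83, limma adjusted p = 0.286). The second Adrb3 feature gave 4.23 for Mim2 minus Mim1 (limma adjusted p = 0.0353).

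Among the uptake and transport genes, Fabp4 encodes the fatty acid binding protein that adipocytes, macrophages and capillary endothelium use in the cytosol. On chromosome 3 from 10204345 to 10208559, it was bright throughout, with 14.17, 13.62, 10.97 and 11.52 in Mim2-2, Mim2-3, Mim1-5 and Mim1-6, against 12.24, 12.71, 11.93 and 11.26 in WT-1 to WT-4. The Mim2 arrays lay above all others, Mim1-5 lay below the wild type and Mim1-6 within its range. Mim2 minus Mim1 was 2.65 (SE 0.54, limma adjusted p = 0.0579), while knockout minus wild type was 0.53 (SE 0.59, limma adjusted p = 0.712) and turned to -0.035 without WT-4. It was 0.15 without Mim2-2, 0.87 without WT-1 and 0.92 without Mim1-5. The dimmer second feature read 11.79, 10.04, 6.91 and 6.95 in the knockout arrays in that order, against 6.07 to 7.55 in the wild type, and its Mim2 minus Mim1 difference of 3.99 passed (limma adjusted p = 0.0396).

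Lpl, lipoprotein lipase, frees fatty acids from circulating triglyceride at the capillary wall, and its features disagreed in size. The brightest, on chromosome 8 from 71404453 to 71413578, read 10.12, 10.11, 9.37 and 8.81 in Mim2-2, Mim2-3, Mim1-5 and Mim1-6, against 9.56, 9.23, 8.99 and 9.21 in WT-1 to WT-4. Its Mim2 arrays lay a little above the others, and Mim2 minus Mim1 was 1.03 (SE 0.39, limma adjusted p = 0.208). The second feature, from 71404464 to 71428913, read 12.32, 11.19, 7.89 and 6.92 in those knockout arrays, against 7.57, 7.94, 8.60 and 7.05 in the wild type. There Mim2 minus Mim1 was 4.35 (SE 0.61, limma adjusted p = 0.0365). The other Lpl features lay at or near the random probes on most arrays.

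Cd36, a scavenger receptor that takes up fatty acids in macrophages, endothelium and adipocytes, followed neither genotype nor prefix array by array in its brightest feature. On chromosome 5 from 17287833 to 17355573, it read 11.39, 10.69, 11.21 and 7.47 in Mim2-2, Mim2-3, Mim1-5 and Mim1-6, against 11.03, 11.20, 11.50 and 8.37 in WT-1 to WT-4. One array of each genotype was low, Mim1-6 and WT-4, and both were also the lowest in the other Cd36 features. The knockout minus wild type difference was -0.34 (SE 0.98, limma adjusted p = 0.903), with a 95% interval from -2.54 to 1.87, and turned to 0.73 without Mim1-6 and 0.07 without WT-3. Mim2 minus Mim1 was 1.70 (SE 1.26, limma adjusted p = 0.506), and 1.96 and 1.94 in the dimmer features, none of them called. In the dimmest feature both Mim2 arrays lay just above the others, at 10.68 and 10.39 against 10.33 in WT-2.

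**Figure D2:**
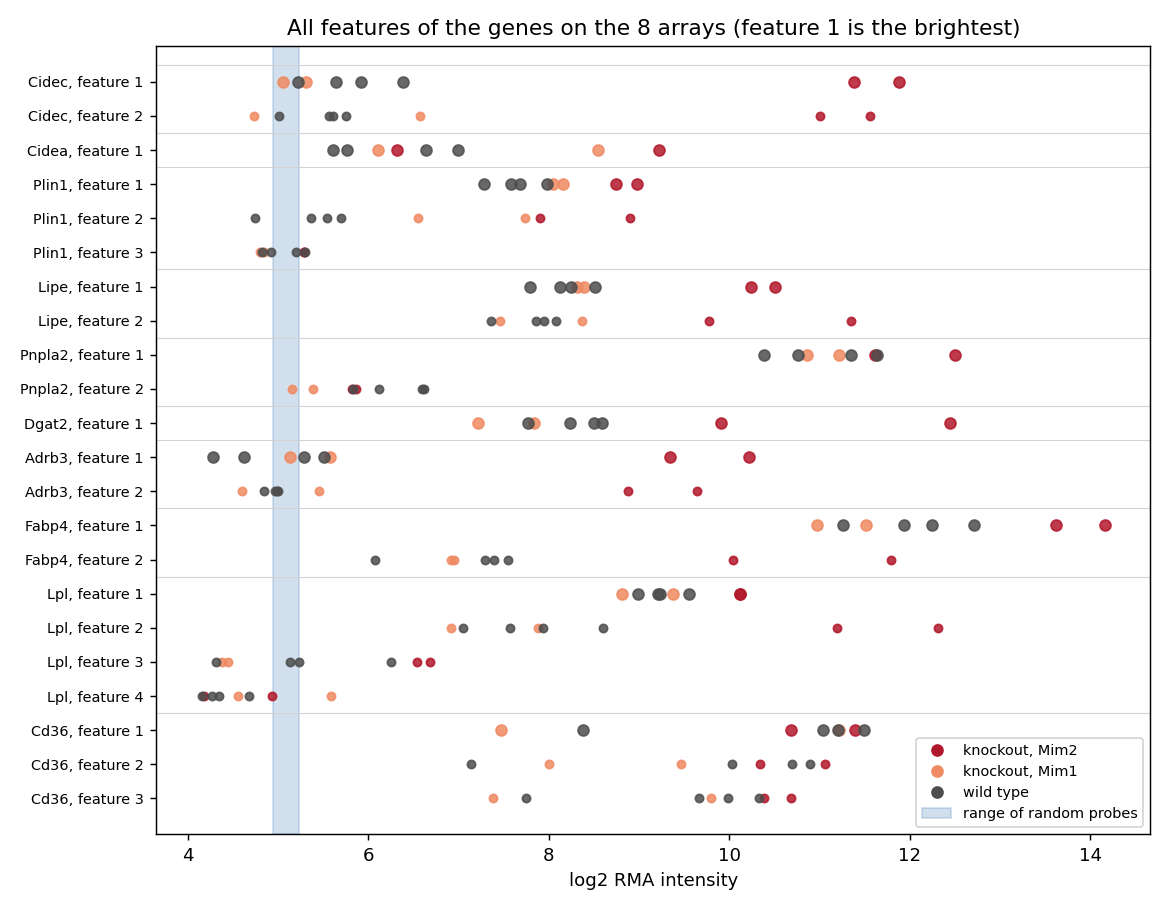
Log2 intensity (horizontal axis) of all 22 features of the genes on the 8 arrays, with knockout Mim2 in red, knockout Mim1 in orange, wild type in grey and the range of the random probes as a band. Both features of Cidec, Lipe, Adrb3 and Fabp4 have the Mim2 arrays at the right, and Plin1 and Lpl each have features within or near the band.

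Over the 10 genes, 9 were higher and 1 was lower on the knockout arrays, with a median difference of 0.96 against 0.06 over all genes. limma called 0 of 10 members higher, where it called 0% of all features. At an unadjusted p under 0.05 it counted 3 members higher, Adrb3, Plin1 and Lipe, where the share of all features was 6.98% higher and 6.88% lower. The SD among knockout arrays ran from 0.45 for Plin1 to 3.73 for Cidec, and from 0.23 to 1.45 among wild-type arrays. The members' median was 0.40 without Mim2-2. Without both Mim2 arrays and without the sex term it was -0.075, with 5 members higher, from Pnpla2 at 0.0047 to Cidea at 1.07, and 5 lower, from Lpl at -0.15 to Cd36 at -1.18. The SD was larger in the knockout for 10 of 10 members and for 65.4% of all genes.

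Among the knockout arrays, all 10 genes had higher means in Mim2 than in Mim1, with a median difference of 1.86 against 0.13 over all genes. Cidec, Adrb3 and Lipe were called higher, 3 of 10 members, where 0.172% of all features were called higher and 1.63% lower. Both Mim2 arrays lay above the other 6 for 7 of 10 members and for 16.3% of all genes. The members outside that count were Cidea, Pnpla2 and Cd36. By feature, 7 of the 22 were called higher and 0 lower. These calls depend on single arrays, with wild-type arrays also entering through the shared spread. Leaving out any 1 array other than Mim2-3 ended the calls of Cidec and Adrb3 (adjusted p from 0.0699 to 0.200), and leaving out any 1 array ended that of Lipe (adjusted p from 0.0806 to 0.220), while the differences stayed between 6.20 and 6.58 for Cidec, 3.99 and 4.65 for Adrb3 and 1.89 and 2.16 for Lipe in those fits.

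Within labelled sexes, the knockout arrays of labelled males, both Mim2, were higher than those of the wild type for all 10 genes, with a median of 1.99 against 0.15 over all genes. Cidec differed by 6.06 (SE 0.44, limma adjusted p = 0.0216), Adrb3 by 4.88 (SE 0.54, limma adjusted p = 0.0216) and Lipe by 2.22 (SE 0.38, limma adjusted p = 0.0306). These 3 of 10 were called, where 0.899% of all features were called higher and 3.35% lower. At an unadjusted p under 0.05, 7 of 10 members were counted higher, where the shares of all features were 10.9% higher and 12.6% lower. Leaving out Mim2-2 or any 1 wild-type array ended the calls of Cidec and Adrb3 (adjusted p from 0.0537 to 0.180), and leaving out any 1 array ended that of Lipe. Among labelled females, both knockout arrays being Mim1, 5 genes were higher and 5 lower, with a median of -0.08. limma called 0 of 10 there and 0% of all features higher, and at an unadjusted p under 0.05 it counted 0 members in either direction, with 2.35% of all features higher and 2.8% lower. Mim2 minus Mim1 and the labelled male comparison share the Mim2 arrays.

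The difference between the labelled sexes in the knockout effect was tested as an interaction. It was positive for all 10 genes, with a median of 2.41, and was called for 0 of 10 members and 0% of all features. The lowest adjusted p was 0.106, for Cidec, where the knockout effect was 6.89 higher in labelled males. At an unadjusted p under 0.05, 5 of 10 members and 5.26% of all features were counted higher, with 0 members and 8.03% of features lower. Among wild-type arrays labelled male minus labelled female had a median of -0.06 over the members, and limma called 0 of 10 and 0% of all features higher, with 0 members at an unadjusted p under 0.05, where 2.56% of features were higher and 2.45% lower.

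**Figure D3:**
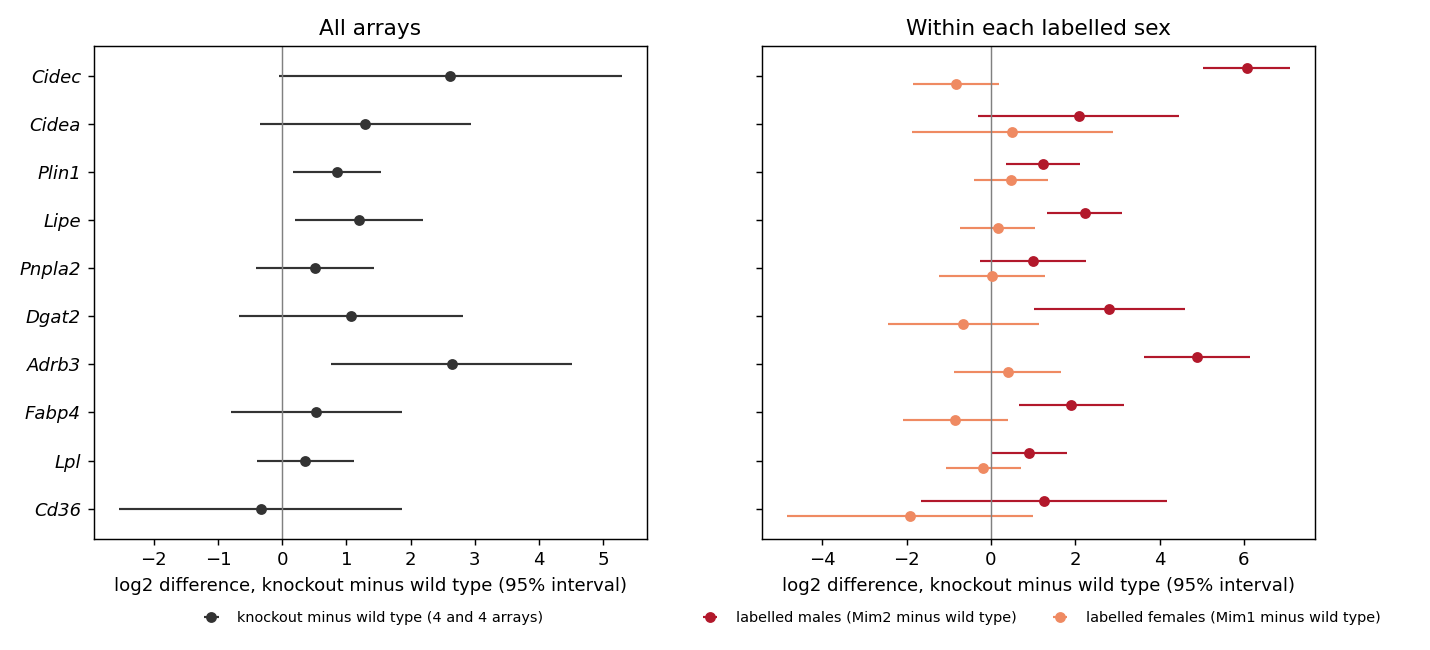
Log2 difference, knockout minus wild type (horizontal axis), for the brightest feature of each gene with its 95% interval from limma, over all arrays on the left panel and within labelled males (red) and labelled females (orange) on the right panel. Cidec, Adrb3 and Lipe lie furthest from 0 relative to their intervals in labelled males, at 6.06, 4.88 and 2.22.

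Other genes of the same pathways differed in both directions. Of 11 measured genes of the droplet coat, 4 were higher and 7 lower in the knockout, with a median of -0.27. Plin3, a perilipin found on droplets of most cells, read 8.22, 9.43, 11.02 and 11.36 in Mim2-2, Mim2-3, Mim1-5 and Mim1-6, against 11.39 to 11.86 in the wild type (difference -1.60, limma adjusted p = 0.288). All knockout arrays lay below the wild type, Mim1-6 by a small gap, and the Mim2 arrays lay lowest. Such a separation held for 2.56% of all genes. The small GTPase gene Rab18 differed by -0.91 and Fitm1, a gene of fat storage in the endoplasmic reticulum of muscle, by 0.91, near the random probes. limma called 0 of the 11 here and in the 3 lists that follow.

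Of 11 measured genes of lipolysis signalling, 3 were higher and 8 lower, with a median of -0.08. The G protein gene Gnas differed by -0.87 and the adenylyl cyclase gene Adcy6 by -0.53. Of 14 genes of triglyceride synthesis, 7 were higher and 7 lower, with a median of 0.04. The monoacylglycerol acyltransferase gene Mogat1 differed by 0.95, the acyltransferase gene Agpat1 by -1.30 and Acsl1, which activates fatty acids with coenzyme A, by 1.48. Of 11 genes of fatty acid uptake, 5 were higher and 6 lower, with a median of -0.05. Lmf1, which matures lipoprotein lipase, differed by -1.99, the lipoprotein receptor gene Vldlr by -1.62 and the lipase inhibitor gene Angptl4 by 1.42.

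Between Mim2 and Mim1, 1 of 11 measured genes of lipolysis signalling was called higher and 2 of 11 of fatty acid uptake were called lower, with 0 of 11 of the coat and 0 of 14 of synthesis, where 0.172% of all features were called higher and 1.63% lower. Aqp7, the channel through which glycerol leaves adipocytes, read 9.30 and 10.22 in Mim2, 7.30 and 6.06 in Mim1, against 7.43 to 7.75 in the wild type, a Mim2 minus Mim1 difference of 3.08 (limma adjusted p = 0.0406). Vldlr read 6.58 and 6.67 in Mim2, 9.69 and 9.63 in Mim1, against 9.55 to 9.95 in the wild type, a Mim2 minus Mim1 difference of -3.04 (limma adjusted p = 0.0353). The fatty acid transport gene Slc27a4 was also lower, by -2.02 (limma adjusted p = 0.045). Aqp7, Slc27a4 and the called direction of Vldlr were picked out after their values were seen. Plin4, Adrb1, Pde3b and Slc27a3 have no feature under these names.

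Markers of other cell types moved on the same arrays. The mean of 9 adipocyte markers, none of them a member, was 10.11 for Mim2-2, 9.64 for Mim2-3, 7.07 for Mim1-5 and 7.10 for Mim1-6, against 6.73 to 7.72 in wild-type arrays. Both Mim2 arrays lay above all others, and 9 of 9 markers had the higher mean in Mim2, of which Adipoq and Pck1 were called. The smallest differences were 0.13 for Trarg1 and 0.49 for Acvr1c, whose Mim2 arrays did not lie above all others. Over all genes, 13603 of 24171 had the higher mean in Mim2, and 0.172% of all features were called higher and 1.63% lower. Knockout and wild type averaged 8.48 ± 1.62 and 7.22 ± 0.43 (SD, n = 4 each, exact two-sided permutation p = 0.257, where the smallest possible is 0.0286). Adipoq, the adipocyte hormone adiponectin, read 12.93, 11.47, 7.14 and 7.33 in Mim2-2, Mim2-3, Mim1-5 and Mim1-6, against 6.75 to 7.996 in the wild type. Lep, leptin, read 7.40, 8.30, 5.05 and 5.60, against 5.20 to 6.90. The part of these markers in the members' differences was not tested.

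Other lists moved too. The mean of 12 mammary epithelium markers was 8.70 and 9.83 in Mim2, 10.38 to 11.06 in Mim1 and 11.54 to 11.79 in the wild type, so every knockout array lay below the wild type. Between Mim2 and Mim1, 4 of the 12 were called lower (Epcam, Krt8, Krt18 and Elf5) and 1 higher (Krt19, by 2.77), and 7 did not pass, among them Btn1a1 at 1.30 and Csn1s1 at 0.94. Of all features, 1.63% were called lower and 0.172% higher in that comparison. Epcam, an epithelial adhesion gene, read 10.26 and 11.24 in Mim2, 13.11 to 13.27 in Mim1 and 13.18 to 13.55 in the wild type. Capillary endothelium markers averaged 9.64 to 9.996 in Mim2, 9.04 to 9.33 in Mim1 and 8.80 to 9.18 in the wild type, and its genes Pecam1 and Cdh5 differed between knockout and wild type by 0.52 and 0.42. Macrophage markers averaged 10.15 to 10.36 in Mim2, 9.64 to 10.13 in Mim1 and 9.08 to 9.76 in the wild type.

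B cell markers averaged 10.48 to 10.64 in Mim2, 9.81 to 9.995 in Mim1 and 8.71 to 9.30 in the wild type. Exocrine pancreas markers averaged 6.998 to 7.53 in Mim2, 6.84 to 7.82 in Mim1 and 5.52 to 6.04 in the wild type, and its genes Cpa1 and Cela2a differed between genotypes by 1.73 and 1.43. Skeletal muscle markers averaged 7.24 to 7.37 in Mim2, 6.02 to 6.59 in Mim1 and 6.30 to 6.72 in the wild type, with differences of 0.26 for Ckm and -0.08 for Acta1. Brown adipocyte markers averaged 6.56 to 6.63 in Mim2, 5.68 to 5.99 in Mim1 and 5.79 to 6.38 in the wild type. Ucp1, the uncoupling protein that defines brown fat, was dim, at 4.61 to 6.63 in knockout and 4.27 to 6.55 in wild-type arrays. limma called 0 genes of these 8 marker lists between knockout and wild type, and the part of these cell types in the members' values was not tested.

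**Figure D4:**
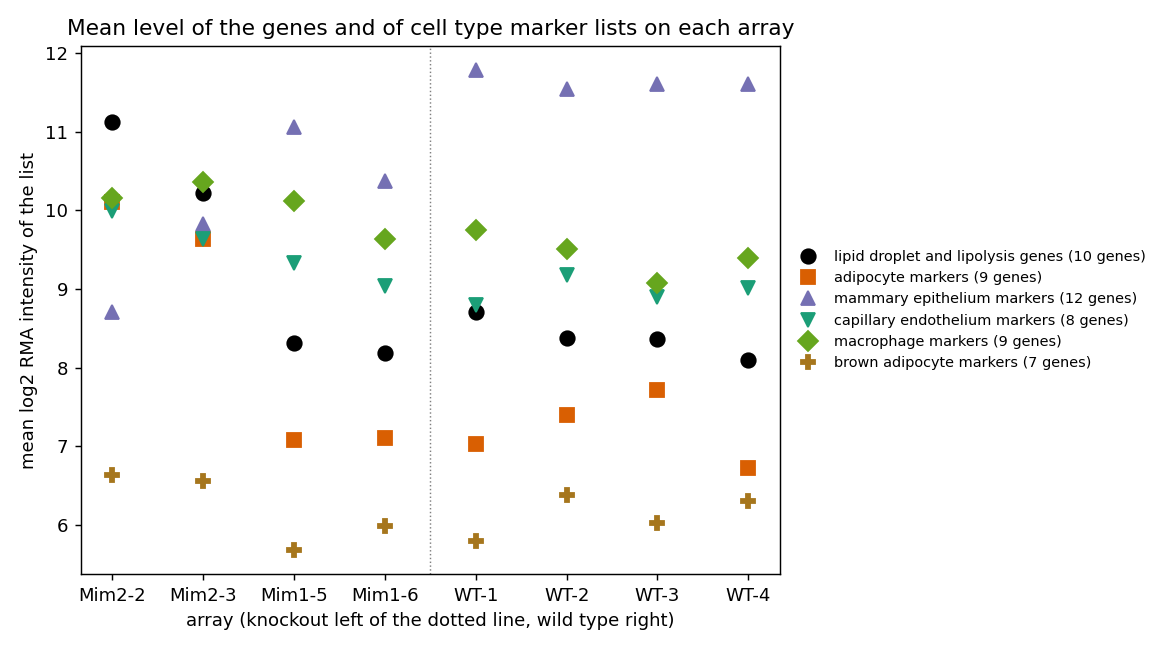
Mean log2 intensity (vertical axis) of the 10 genes and of 5 marker lists on each array (horizontal axis), with the knockout arrays left of the dotted line. The 10 genes and the adipocyte markers are highest on Mim2-2 and Mim2-3, where the mammary epithelium markers are lowest.

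The genes closest in pattern to each variable member were found by the mean absolute difference of their deviations over the 8 arrays, among 21702 genes. For Cidec they were Cdo1 (0.585), Adipoq (0.591) and Car3 (0.603), where the median gene lay at 2.22. For Adrb3 the same genes came first, Adipoq (0.479), Cdo1 (0.486) and Car3 (0.523), where the median gene lay at 1.73. For Lipe they were Gsn, Gpx3 and Gm2003 (0.213 to 0.218), for Fabp4 Ptn, Trpm6 and Gm5434 (0.226 to 0.276), and for Pnpla2 Bscl2, Tsks and Gm3725 (0.138 to 0.160). The median gene lay at 0.850 for Lipe, 0.952 for Fabp4 and 0.647 for Pnpla2. For Dgat2 they were Mcoln2, Fmo1 and Vmn2r62, for Cidea Pygl, Olfr1269 and Xlr5b, and for Cd36 Xylb, Olfr330 and Chrdl1, at 0.366 to 0.548. The median gene lay at 1.21 for Dgat2, 1.09 for Cidea and 1.26 for Cd36. The arrays share their depth of signal and the separation of Mim2, so these distances are descriptions.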

How the data were processed

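Spleen RNA of 4 knockout and 4 wild-type mice was measured on 1 array per animal. The authors deposited an intensity per feature on the linear scale, made with RMA (background correction, normalization between arrays, summary of probes) per the submitters' processing notes. No RMA version is given in these sources. Per the file headers, 44155 of 44170 features rest on 3 probes and positions are of build MM9. The deposited standard error score of each feature entered no test. The deposited table of the series holds 21856 of the features and equals the array tables within a relative 8.75e-07. It holds the brightest feature of 7 of the 10 members.

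Values were taken to log2 with no second normalization. Of 24204 Entrez numbers, 21583 matched RefSeq's GRCm38.p6 table, used for symbols alone. Differences were tested two-sided in R 4.3.3 by limma 3.58.1 (lmFit, then eBayes), with Benjamini-Hochberg adjustment over 44170 features and a threshold of 0.05. Knockout minus wild type had labelled sex as an additive term. The other differences came from cell means of genotype by labelled sex. The steps were tested on simulated data.

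Members and lists were chosen with earlier results of these data known. Named were the members, the 3 genes of each pathway list with the smallest p, the defining markers and, for members ranging over 2 or more on the log2 scale, the 3 genes closest in pattern among those above the random probes on at least 4 arrays. Some of the genes so named are left out of the text. Alternatives covered normalization, the value table, dim features, the floor, a pseudocount of 16, the variance model, array weights, covariates, features per gene and leaving out arrays. The number of arrays limits the precision.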

Additional observations from a re-analysis of the deposited data

Results flagged for a closer look

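Cd36 on wild-type array WT-4, at a log2 intensity of 8.37, lay far below the other wild-type arrays. Its gap to the nearest of them was 0.852 of the group's range, above Dixon's critical value for 4 samples. Chance passes this limit in about 1 in 20 groups, and all members were looked at in both genotypes.

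For Cidec the knockout arrays of labelled males lay above those of the wild type, and the knockout arrays of labelled females lay below, every array in both cases. The knockout effect was 6.89 higher in labelled males (limma interaction, adjusted p = 0.106). For Fabp4 the arrays lay the same way, with an effect 2.76 higher in labelled males (limma interaction, adjusted p = 0.226). Neither difference passed, and labelled sex and name prefix cannot be told apart among the knockout animals. This arrangement was looked for in all members and in the 3 genes named from each pathway list. Its share over all genes was not counted, so it is not shown to be particular to Cidec and Fabp4. The second features of Cidec and Fabp4 did not have it. There knockout minus wild type in labelled females was 0.27 for Cidec and 0.24 for Fabp4. In the brightest Cidec feature the arrays labelled female, and the wild-type arrays labelled male, lay near the random probes.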

How the results depend on the processing

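Knockout minus wild type called 0 features under every alternative but the trend and robust variance model, which called 16. The members' median of 0.96 was -0.075 without both Mim2 arrays and no sex term, where Cidec differed by -0.61, Dgat2 by -0.75, Fabp4 by -0.80 and Lpl by -0.15. Leaving out 1 array gave medians of 0.40 to 1.17, with the lowest without Mim2-2. Pnpla2 turned to -0.11 with the mean of its features, Fabp4 to -0.035 without WT-4 (0.92 at the highest, without Mim1-5), and Cd36 to 0.73 without Mim1-6 and 0.07 without WT-3 (-1.22 at the lowest, without WT-4). The features called for Mim2 minus Mim1, 76 higher and 719 lower, were in all 275 with quantile normalization, 3073 in the value table, 2719 with the trend and robust model, 61 with array weights, 1351 with the pseudocount and 362 with gene means, and 0 to 745 with 1 array left out, 0 in all but the fit without Mim2-3. There Cidea turned to -0.78 without Mim1-5 and -1.01 without Mim2-2 (1.90 at the highest), and Cd36 to -0.17 without Mim1-6 (3.57 at the highest). Lipe was not called with quantile normalization (adjusted p = 0.0504) or array weights (0.0709), beside the losses given in the text. Dgat2 and Fabp4 were each called under 4 alternatives and Lpl under 1.

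Leaving out arrays within labelled sexes was chosen after seeing the data. In labelled males it gave 0 to 1476 calls, against 397 higher and 1478 lower with all arrays, and 0 calls without Mim2-2 or any wild-type array. Lipe had adjusted p from 0.0501 to 0.185 there, and Cd36 turned to -0.16 without WT-4 (2.66 at the highest). Other models called 1255 higher and 3011 lower (trend and robust), 1469 and 3361 (value table), 796 and 2087 (pseudocount), 146 and 895 (array weights) and 331 and 739 (gene means). In labelled females Cidea turned to -0.71 without Mim1-6 (1.73 at the highest), Pnpla2 to -0.15 without Mim1-5 and -0.60 without WT-3 (0.66 at the highest), and Lpl to 0.10 without Mim1-6 or WT-1 (-0.46 at the lowest). The interaction, with 0 calls, had 18 higher and 293 lower in the value table, 33 and 545 with the trend and robust model, 2 and 1 with the pseudocount and 0 and 1 with gene means. In a fit that leaves 1 array in an arm, that array is assumed to vary like the other groups. No paired analysis was possible because no label ties a knockout animal to a wild-type animal. The random probes limit Cidec, Adrb3 and Ucp1 on most arrays. The cause of these changes was not tested.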
